A study of Mus musculus with 20 samples.

Results

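The genes described here are 123 cell cycle and DNA replication genes of a mouse expression array, out of 9230 genes that the array's annotation names by a probe with 1 gene symbol. They comprise cyclins, cyclin-dependent kinases and their inhibitors, Cdc genes, the Mcm and Orc genes of replication origins, replication polymerases and their loaders, ribonucleotide reductase, E2f and Myc transcription factors, checkpoint kinases, Aurora and Polo kinases, centromere proteins and the proliferation markers Mki67, Top2a and Pbk. They were chosen by the spelling of the gene symbol, with names starting with Cdc42 left out. The rule itself holds no measured difference, but it was set with earlier results of these data known. Mki67, Top2a and Pbk enter it by their full names. A spelling rule also takes in genes that act largely outside the cycle, such as Cdk5, a kinase of postmitotic neurons, Cdc37, a chaperone of kinases, and Cdc40, a splicing factor. Only Pole3 had a second probe, and its brighter probe over all 20 arrays stood for it. Of the 123 genes, 120 were tested, and Cdk2ap1, Mcm8 and Cdc7 had too few values at site 2 for a test.

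Total RNA from a pool of adult C57/B6 mouse retina and from a pool of Swiss-Webster mouse cortex, collected at postnatal day 1, was hybridised to CodeLink arrays, which give 1 intensity per probe from biotin-labelled RNA. Both pools were measured at a first site and at site 2, with 5 arrays per pool and site, which makes 4 groups of 5 technical replicates and 20 arrays in all. Tissue, strain and age differ together between the pools and cannot be told apart, the number of animals per pool is not given in the sources used here, and a p-value measures the spread between arrays of the same RNA. The sample titles carry the code MRP1 for retina, which the labels do not explain, while the source field calls the same retina adult. Intensities are linear and have no unit, and an intensity of 1 lies near the median probe, since the medians of the 20 arrays ran from 0.927 to 0.963. In bulk RNA, fewer cells of a type and less RNA per cell cannot be told apart. A member was called when its Benjamini-Hochberg adjusted p in limma, taken over all 10339 tested probes, fell below 0.05 and the groups differed by 2-fold or more.

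The labels of the tissues were checked against marker genes. All 8 photoreceptor markers measured were called higher in retina at both sites. Their summed intensity ran from 453 to 588 on the retina arrays of the first site, against 3.98 to 14 on the cortex arrays. On the arrays of site 2 the sums were 633 to 690 in retina and 2.45 to 6.06 in cortex. In cortex 5 of the 8 markers were called lower on the site 2 arrays, with a median of -1.73 log2 over all 8. Cortex means fell from 1.26 to 0.202 for Sag and from 2.66 to 0.141 for Gnat1, while 2 markers lay higher. The tissue difference of 5 markers was called larger on the site 2 arrays. The reason was not tested. All 7 markers of newborn cortical neurons were called lower in retina at both sites, with first-site sums of 2.15 to 3.16 in retina and 51.1 to 56.6 in cortex. Markers of other cells also differed between the tissues, where 10.5% of all tested probes were called lower in retina at both sites. Lower at both sites were 4 of 4 oligodendrocyte precursor genes (Pdgfra, Olig1, Sox10 and Nkx2-2). So were 4 of 5 genes of connective tissue and meninges (Col1a1, Col1a2, Dcn and Lum) and 4 of 9 endothelial genes (Tek, Tie1, Cldn5 and Eng). In the endothelial list Kdr was called higher at both sites and Flt1 at the first site only (2.21 log2, adjusted p in limma 0.0024). At the first site the oligodendrocyte precursor sum was 4.96 to 5.77 in retina and 21.2 to 24.5 in cortex, the connective tissue sum 1.01 to 1.07 and 4.91 to 5.72, and the endothelial sum 13.7 to 15.1 and 16.8 to 20.4. Of 12 neural progenitor genes, 2 were called lower in retina at both sites (Fabp7 and Emx2) and 7 were called at neither. The 3 higher genes were Pax6, Msi1 and Prom1, which the adult retina is also known to express. The first-site sum was 73.2 to 78.5 in retina and 98.4 to 138 in cortex, and it rests largely on a few genes. Fabp7 alone averaged 2.7 in retina and 73.7 in cortex there. Pax6 averaged 21.6 in retina and 2.34 in cortex, and Prom1 21.6 and 0.586. Among microglia and macrophage genes 2 of 8 (Aif1 and Fcer1g) were lower at both sites, with sums of 11.8 to 13 and 13.9 to 15.4 at the first site, and among 3 erythroid genes Hba-a1 was lower, with sums of 11.8 to 15.1 and 42.8 to 52.6. The part of these cells in the differences below was not tested.

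Cortex replicate 5 of site 2 stood apart from the other 4 cortex arrays of its group for several members, and results that rest on it are given with and without it. Leaving it out moved the site 2 tissue difference of 4 members by more than 0.5 log2. Without it Cdc6 differed by -1.60 in place of -2.34, Cdk18 by 1.78 in place of 0.94, Mcm2 by -0.12 in place of -0.94 and Plk1 by -0.70 in place of -1.52. In the same way retina replicate 2 of site 2 decided the size of the Mcm6 difference, which was -2.70 without it and -1.86 with it. The 4 groups share the same estimate of spread for a probe. An array that stands apart at site 2 therefore also widens the first-site SE, as for Cdk18, Cdc6 and Mcm6. The count of members called lower in retina at site 2 was 43 without the cortex array and 40 with it. In either case 5 were called higher, but not the same 5. Without the array Cdc25a lost its call (0.88) and Cdk18 gained one.

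Cells divide by a cycle in which D-type cyclins with Cdk4 and Cdk6 release E2f factors from the retinoblastoma protein, E2f factors switch on the genes of DNA synthesis, and Cdk1 with B-type cyclins drives mitosis. Origins of replication are licensed when the origin recognition complex and Cdc6 load the Mcm helicase, and at mitosis centromere proteins attach chromosomes to the spindle under the watch of the spindle checkpoint. The adult mouse retina is made mostly of neurons that have left the cycle for good, whereas the newborn mouse cortex still holds dividing progenitors and glial precursors beside newly formed neurons.

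Compared with newborn cortex, adult retina had less transcript of the markers of cycling cells, of the mitotic kinase Cdk1, of several centromere proteins, of ribonucleotide reductase subunit 2 and of 3 Myc factors, while most Orc genes and replication polymerases were called at neither site. At the first site 38 of the 120 tested members were called lower in retina (31.7%, against 13.0% of all tested probes) and 9 higher (7.50%, against 11.9%). At site 2 the counts were 40 lower (33.3%, against 13.5%) and 5 higher (4.17%, against 11.1%). The median difference of the members was -0.37 log2 at the first site and -0.44 at site 2, where the median of all tested probes was -0.04 and -0.05. At both sites 32 members were called lower (26.7%, against 10.5% of all tested probes) and 5 higher (4.17%, against 9.31%). At neither site 65 were called (54.2%, against 70.4%), and none was called in opposite directions. In 59 members at the first site and 51 at site 2 every retina array lay below every cortex array, a pattern found in 27.1% and 24.3% of all tested probes. In 19 and 16 members every retina array lay above (26.2% and 24.0% of all probes).

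**Figure D1:**
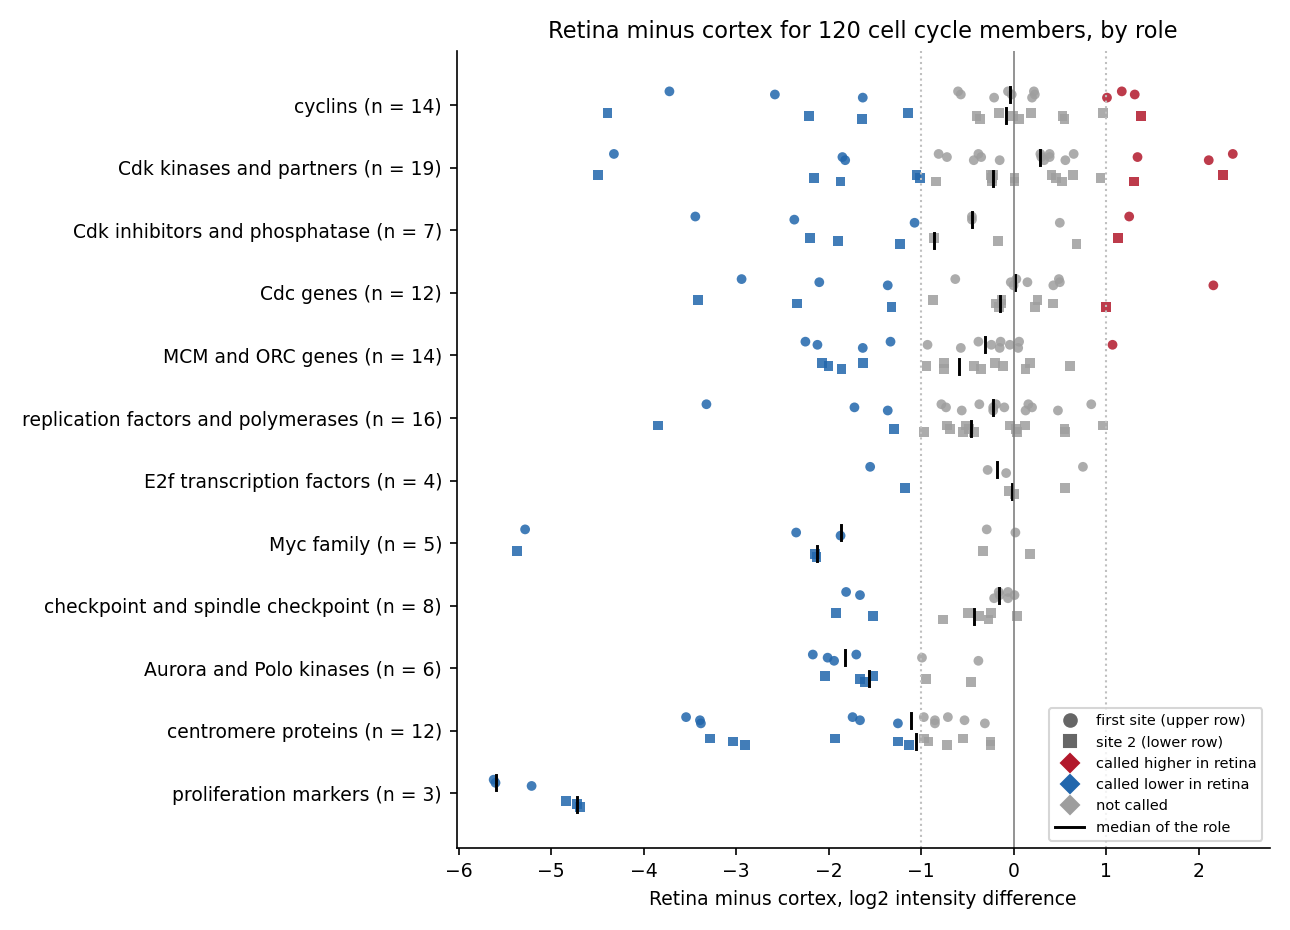
The retina minus cortex difference of each of the 120 tested members (log2 intensity, horizontal axis) by role, with circles for the first site and squares for site 2, black ticks at the role medians and dotted lines at 2-fold. The 3 proliferation markers lie between -5.62 and -4.69, whereas most replication factors and Orc genes lie between the dotted lines.

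The proliferation markers and Myc had the largest differences of all members. Mki67 read 0.0578, 0.0828, 0.0467, 0.0696 and 0.0954 on the 5 retina arrays of the first site, against 3.08, 3.32, 3.52, 3.15 and 3.56 on the 5 cortex arrays. At site 2, Mki67 read 0.122, 0.0886, 0.116, 0.12 and 0.127 in retina, against 3.69, 3.44, 3.53, 2.83 and 2.85 in cortex. Mki67, the gene of the Ki-67 antigen of cycling cells, thus had every retina array far below every cortex array, by -5.60 log2 (SE 0.15, adjusted p in limma 2.7e-16) at the first site and -4.84 log2 (SE 0.15, adjusted p in limma 2.2e-15) at site 2. Pbk read 0.0349, 0.0576, 0.0509, 0.0357 and 0.0607 on the 5 retina arrays of the first site, against 2.41, 2.17, 2.31, 2.43 and 2.14 on the 5 cortex arrays. At site 2, Pbk read 0.0681, 0.136, 0.101, 0.073 and 0.136 in retina, against 2.86, 2.65, 2.84, 2.58 and 2.15 in cortex. Pbk encodes a kinase active in mitosis, and its groups did not overlap at either site (-5.62 log2 (SE 0.19, adjusted p in limma 5.9e-15) and -4.72 log2 (SE 0.19, adjusted p in limma 8.3e-14)). Top2a read 0.0546, 0.0794, 0.0405, 0.0276 and 0.0296 on the 5 retina arrays of the first site, against 1.6, 1.81, 1.3, 1.4 and 1.85 on the 5 cortex arrays. At site 2, Top2a read 0.095, 0.096, 0.0491, 0.0723 and 0.0593 in retina, against 1.91, 1.98, 1.96, 1.84 and 1.63 in cortex. Top2a, the topoisomerase that separates replicated chromosomes, was 36.9-fold lower in retina at the first site and 25.8-fold lower at site 2, with no overlap of arrays (-5.21 log2 (SE 0.24, adjusted p in limma 5.5e-13) and -4.69 log2 (SE 0.24, adjusted p in limma 2.7e-12)). On the retina arrays these 3 genes read near the lower end of the table, whose 5th percentile of intensity was 0.0445, so the size of these folds depends on the authors' background step.

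Among the 5 Myc family genes 3 were called lower in retina at both sites and none higher. Of all tested probes 10.5% were so called lower and 9.31% higher. Myc read 0.107, 0.0729, 0.111, 0.0946 and 0.082 on the 5 retina arrays of the first site, against 3.42, 3.56, 3.61, 3.55 and 3.75 on the 5 cortex arrays. At site 2, Myc read 0.106, 0.105, 0.106, 0.113 and 0.127 in retina, against 4.17, 4.18, 4.31, 3.77 and 7.13 in cortex. Myc, a transcription factor that drives cells into the cycle, showed no overlap between the tissues, and the highest cortex value of site 2 came from replicate 5 (-5.28 log2 (SE 0.14, adjusted p in limma 2.4e-16) at the first site, -5.37 log2 (SE 0.14, adjusted p in limma 1.7e-16) at site 2). Mycn, the family member of neural progenitors, averaged 0.381 in retina and 1.94 in cortex on the first site's arrays, a difference of -2.35 log2 (SE 0.10, adjusted p in limma 9.2e-14), and 0.585 in retina and 2.59 in cortex at site 2 (-2.15). Mycl was lower by a similar amount (-1.87 and -2.13). The Myc-binding protein gene Mycbp (0.02 and 0.18) and Mycs (-0.29 and -0.33) were not called.

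**Figure D2:**
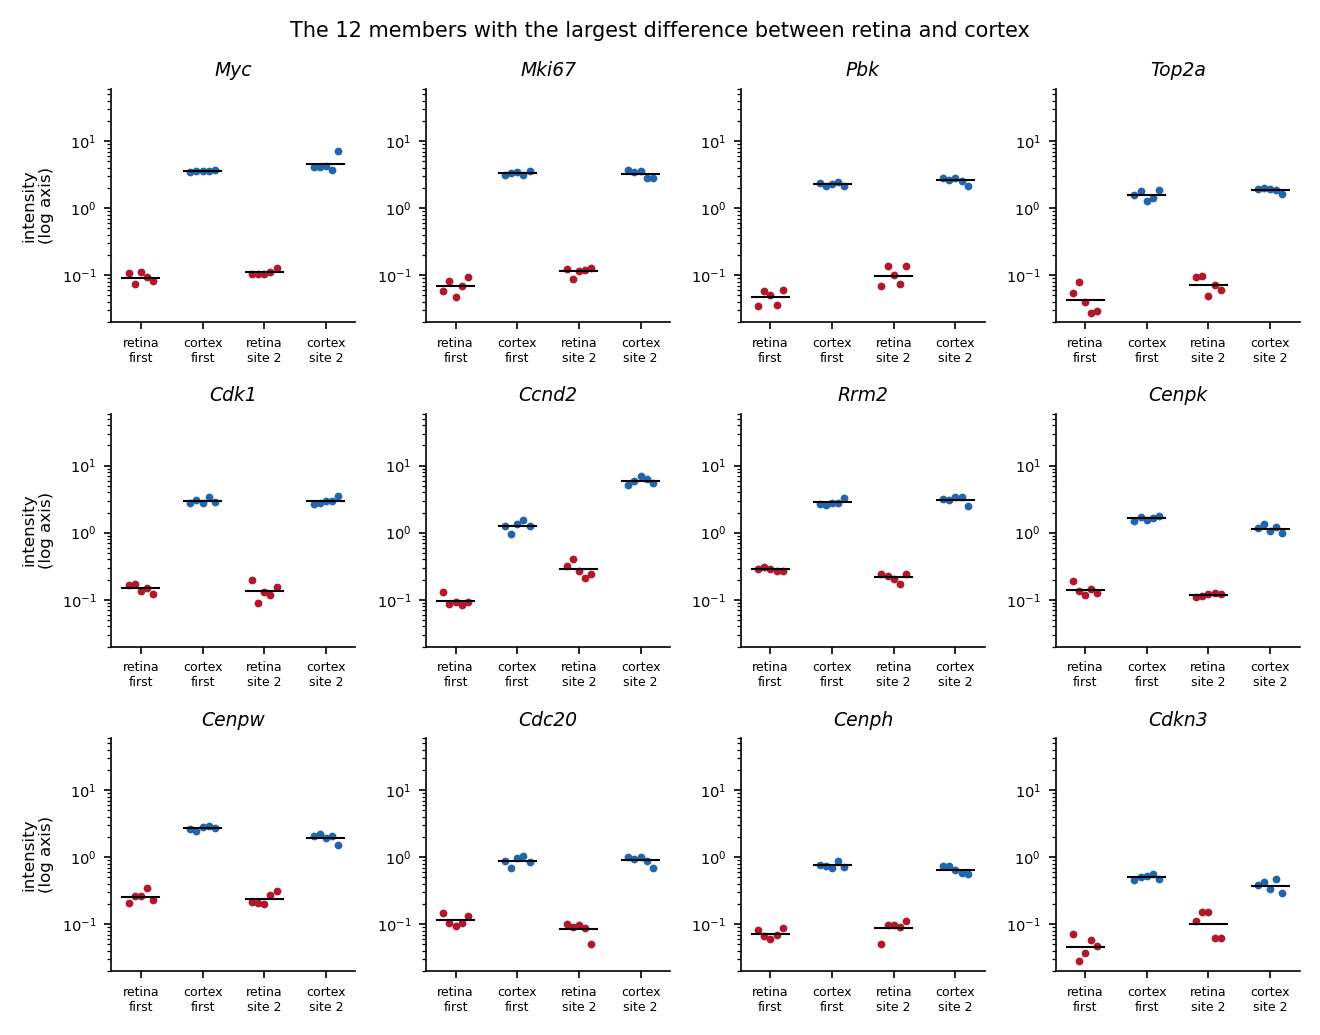
Intensity (log axis, no unit) of the 12 members with the largest tissue difference among those called at both sites, 1 point per array, red for retina and blue for cortex, with a line at the geometric mean of each group of 5. In all 12 panels every retina point lies below every cortex point of its site.

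Of 14 cyclins and cyclin partners, 3 were called lower in retina at both sites (21.4%, against 10.5% of all tested probes) and 1 higher (7.14%, against 9.31%). At neither site 7 were called, and the median of the group was -0.04 at the first site and -0.08 at site 2. Ccnd2 read 0.129, 0.0862, 0.093, 0.0846 and 0.0939 on the 5 retina arrays of the first site, against 1.28, 0.951, 1.35, 1.56 and 1.27 on the 5 cortex arrays. At site 2, Ccnd2 read 0.316, 0.41, 0.271, 0.213 and 0.243 in retina, against 5.17, 5.91, 6.94, 6.27 and 5.54 in cortex. Ccnd2, a D-type cyclin that starts the G1 phase, was 13.2-fold and 21-fold lower in retina, without overlap, and both tissues read higher at site 2 (-3.72 log2 (SE 0.16, adjusted p in limma 2.7e-13) and -4.39 log2 (SE 0.16, adjusted p in limma 2.3e-14)). The mitotic cyclin Ccnb2 differed by -2.58 and -2.21, with retina replicate 2 of site 2 at 0.9 against 0.196 to 0.247 on the other 4 retina arrays. Ccna1, a cyclin best known from male germ cells, differed by -1.63 and -1.64. The S-phase cyclins were not called: Ccna2 differed by 0.20 and 0.19, Ccne1 by -0.06 and -0.36 and Ccne2 by 0.22 and 0.53. Ccnd1 was dim in all 4 groups (means of 0.111 in retina and 0.167 in cortex on the first site's arrays) and had the widest spread of all members there (SD 0.93 and 0.92 log2, n = 5 each), and it was not called (-0.60 and -0.01). Ccnc and Ccnh, which serve transcription complexes, differed by -0.02 and -0.16 and by 0.23 and 0.06, and Ccnf by -0.21 and -0.40. Ccng2, a cyclin linked to growth arrest, was called lower at site 2 only (-0.57 and -1.14).

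Cyclin genes were also found on the other side. Ccnd3 read 0.957, 0.966, 1.28, 0.906 and 0.892 on the 5 retina arrays of the first site, against 0.501, 0.385, 0.552, 0.526 and 0.515 on the 5 cortex arrays. At site 2, Ccnd3 read 0.932, 0.954, 0.964, 0.77 and 0.727 in retina, against 0.552, 0.62, 0.676, 0.669 and 0.467 in cortex. Ccnd3, a D-type cyclin that is also known in differentiated cells, was called higher in retina on the first site's arrays (1.01 log2 (SE 0.13, adjusted p in limma 1.4e-06)) but not at site 2 (0.55), although the arrays did not overlap at either site. Its first-site call sat at the 2-fold limit and was lost without retina replicate 3 or cortex replicate 2 of that site (0.92 in each case). Ccng1 read 5, 4.96, 4.71, 5.26 and 4.59 on the 5 retina arrays of the first site, against 2.23, 2.08, 2.27, 2.18 and 2.13 on the 5 cortex arrays. At site 2, Ccng1 read 3.64, 3.68, 3.51, 3.52 and 3.16 in retina, against 1.92, 1.78, 1.75, 2.09 and 1.46 in cortex. Ccng1, a cyclin induced by DNA damage, lay higher on every retina array, by 2.25-fold at the first site, which was called, and by 1.95-fold at site 2, which was not (1.17 log2 (SE 0.08, adjusted p in limma 1.8e-10) and 0.97 log2 (SE 0.08, adjusted p in limma 3.2e-09)). Ccndbp1 read 16.6, 14.5, 13.6, 15.3 and 15.5 on the 5 retina arrays of the first site, against 6.77, 5.17, 6.22, 6.45 and 5.83 on the 5 cortex arrays. At site 2, Ccndbp1 read 13.8, 13.6, 13.8, 13.6 and 13.1 in retina, against 5.94, 5.48, 5.56, 5.02 and 4.3 in cortex. Ccndbp1, a helix-loop-helix protein that binds D-type cyclins, was higher in retina without overlap and by almost the same amount at both sites (1.31 log2 (SE 0.09, adjusted p in limma 1.3e-10) and 1.38 log2 (SE 0.09, adjusted p in limma 6.5e-11)).

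Of 19 tested kinases and partner genes, 3 were called lower in retina at both sites (15.8%) and 2 higher (10.5%), shares near the 10.5% and 9.31% of all tested probes, and 11 were called at neither. Cdk1 read 0.166, 0.174, 0.136, 0.15 and 0.123 on the 5 retina arrays of the first site, against 2.81, 3.04, 2.74, 3.46 and 2.86 on the 5 cortex arrays. At site 2, Cdk1 read 0.194, 0.0898, 0.129, 0.119 and 0.155 in retina, against 2.69, 2.82, 2.92, 3.02 and 3.5 in cortex. Cdk1, the kinase of mitotic entry, was 20-fold and 22.4-fold lower in retina with no overlap (-4.32 log2 (SE 0.16, adjusted p in limma 1.1e-14) and -4.49 log2 (SE 0.16, adjusted p in limma 7.0e-15)). Cdk4, the G1 partner of D-type cyclins, averaged 2.41 in retina and 8.7 in cortex on the first site's arrays, a difference of -1.85 log2 (SE 0.08, adjusted p in limma 1.1e-13), and 1.76 in retina and 6.43 in cortex at site 2 (-1.87). Cdk2, the S-phase kinase, differed by -0.81 log2 (SE 0.11, adjusted p in limma 2.0e-06) at the first site, below the 2-fold limit, and by -1.05 log2 (SE 0.11, adjusted p in limma 6.1e-08) at site 2, a call lost without cortex replicate 4 (-0.99) or retina replicate 1 of that site. Cdk6 was dim in every group (means of 0.0849 in retina and 0.0942 in cortex on the first site's arrays) and was not called (-0.15 and -0.84), and Cdk3 was not called either (-0.43 and 0.01).

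Most kinases that act in transcription or in other processes differed by less than 2-fold between the tissues. Cdk7, a kinase of the general transcription machinery that also activates other Cdks, differed by 0.39 and 0.41, and Cdk12 and Cdk13, kinases of RNA polymerase II, by 0.30 and 0.46 and by 0.29 and 0.64. Cdk14 differed by 0.65 and 0.52, Cdk16 by -0.35 and -0.22, Cdk20 by 0.33 and 0.01 and Cdk11b by 0.56 and -0.23, and none of these was called. The neuronal kinase Cdk5 was lower by -0.72 and -1.01 and called at site 2 only, where leaving out retina replicate 4 or 5 or cortex replicate 3 or 4 took it under 2-fold (-0.95). Cdk5r1, the activator of Cdk5 in young neurons, averaged 1.07 in retina and 3.79 in cortex on the first site's arrays and was called lower in retina at both sites (-1.82 log2 (SE 0.16, adjusted p in limma 7.8e-09) and -2.16 log2 (SE 0.16, adjusted p in limma 6.8e-10)). The other activator, Cdk5r2, was not called (0.39 and -0.23), nor was Cdk5rap3 (-0.38 and -0.24).

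In the kinase group 3 of 19 tested genes were called higher in retina at 1 or both sites, a share near that of all tested probes (1410 of 10339). Cdk2ap2 read 31.5, 29.1, 31.7, 28.4 and 28 on the 5 retina arrays of the first site, against 5.27, 5.26, 6.34, 6.29 and 5.59 on the 5 cortex arrays. At site 2, Cdk2ap2 read 23.9, 25.1, 23.2, 23.3 and 22.3 in retina, against 5.79, 5.02, 5.28, 4.3 and 4.36 in cortex. Cdk2ap2, named as a Cdk2-associated protein, was the member with the largest difference towards retina, with every retina array above every cortex array (2.37 log2 (SE 0.08, adjusted p in limma 1.1e-14) and 2.26 log2 (SE 0.08, adjusted p in limma 2.3e-14)). Cdk5rap1 read 9.51, 8.2, 8.3, 8.14 and 7.62 on the 5 retina arrays of the first site, against 3.04, 3.23, 3.26, 3.55 and 3.4 on the 5 cortex arrays. At site 2, Cdk5rap1 read 5.24, 4.85, 4.97, 4.74 and 5.47 in retina, against 2.1, 2.07, 1.99, 2.18 and 1.9 in cortex. Cdk5rap1, which modifies mitochondrial transfer RNAs, was 2.53-fold and 2.47-fold higher in retina without overlap, while both tissues read lower at site 2 (1.34 log2 (SE 0.07, adjusted p in limma 2.2e-12) and 1.30 log2 (SE 0.07, adjusted p in limma 3.5e-12)). Cdk18 read 0.551, 0.643, 0.603, 0.549 and 0.522 on the 5 retina arrays of the first site, against 0.142, 0.103, 0.121, 0.157 and 0.145 on the 5 cortex arrays. At site 2, Cdk18 read 0.691, 0.642, 0.642, 0.659 and 0.542 in retina, against 0.205, 0.179, 0.19, 0.166 and 3.31 in cortex. Cdk18, a kinase of the PCTAIRE family, was called higher in retina on the first site's arrays (2.11 log2 (SE 0.56, adjusted p in limma 0.0031)) and not at site 2 (0.94 log2 (SE 0.56, adjusted p in limma 0.157)), where cortex replicate 5 read above every retina array and the other 4 cortex arrays read below them. Without that array the site 2 difference of Cdk18 was 1.78 (adjusted p in limma 1.1e-10), which is past the call threshold.

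**Figure D3:**
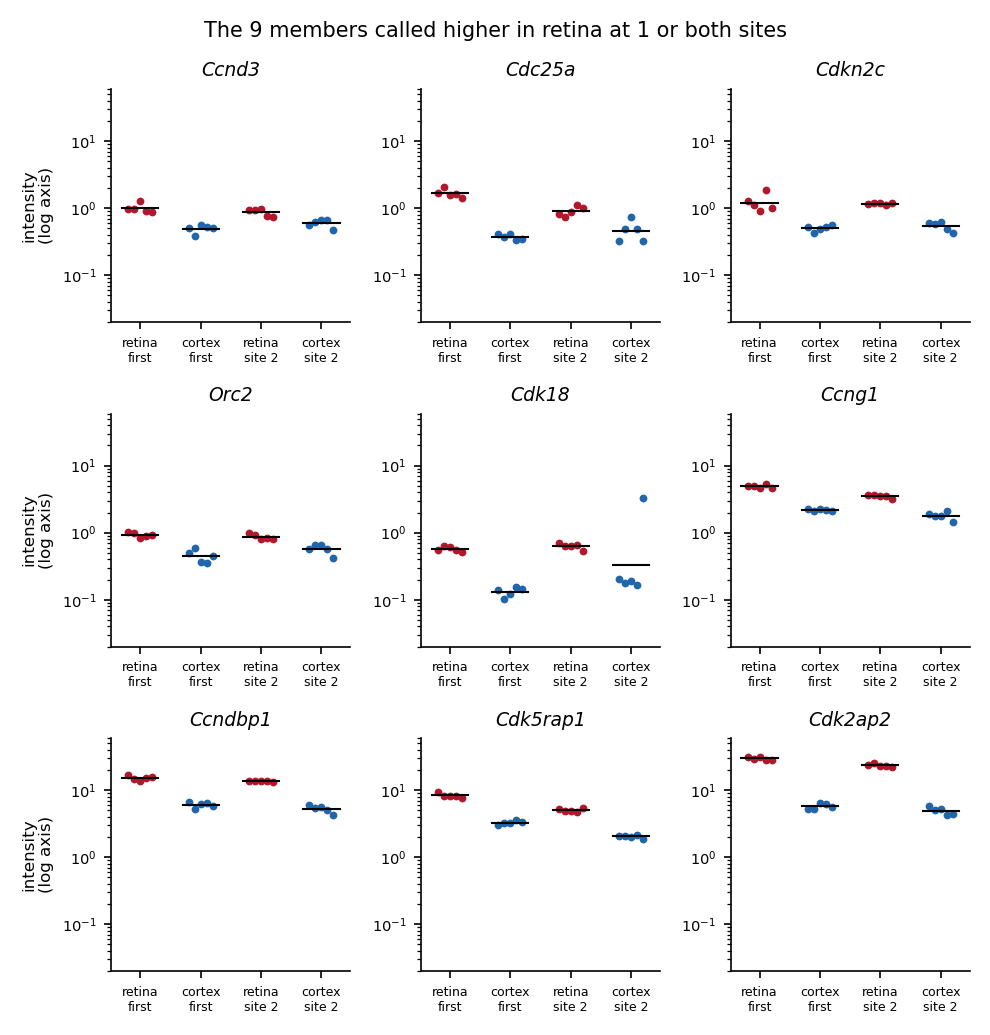
Intensity (log axis, no unit) of the 9 members called higher in retina at 1 or both sites, 1 point per array, red for retina and blue for cortex, with a line at the geometric mean of each group of 5. Cdk2ap2 shows the widest gap, and in the Cdk18 panel a single cortex array of site 2 at 3.31 lies above all retina arrays.

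Of 7 genes of Cdk inhibitors and their relatives 2 were called lower in retina at both sites (28.6%, against 10.5% of all tested probes) and 1 higher (14.3%, against 9.31%). Cdkn3 read 0.0715, 0.0286, 0.0377, 0.0572 and 0.0476 on the 5 retina arrays of the first site, against 0.451, 0.499, 0.519, 0.561 and 0.473 on the 5 cortex arrays. At site 2, Cdkn3 read 0.113, 0.154, 0.151, 0.063 and 0.0632 in retina, against 0.384, 0.428, 0.33, 0.478 and 0.29 in cortex. Cdkn3, a phosphatase that removes an activating phosphate from Cdks, was lower in retina with no overlap at either site, by -3.44 log2 (SE 0.26, adjusted p in limma 1.1e-09) at the first site and -1.90 log2 (SE 0.26, adjusted p in limma 4.0e-06) at site 2. Cdkn1a, an inhibitor induced by Trp53, averaged 0.207 in retina and 1.07 in cortex on the first site's arrays and 0.377 in retina and 1.73 in cortex at site 2, and was 5.17-fold and 4.6-fold lower in retina (-2.37 log2 (SE 0.15, adjusted p in limma 7.8e-11) and -2.20 log2 (SE 0.15, adjusted p in limma 2.4e-10)). Cdkn2c read 1.28, 1.11, 0.901, 1.85 and 1.02 on the 5 retina arrays of the first site, against 0.531, 0.422, 0.49, 0.53 and 0.552 on the 5 cortex arrays. At site 2, Cdkn2c read 1.14, 1.19, 1.18, 1.12 and 1.21 in retina, against 0.592, 0.571, 0.629, 0.483 and 0.424 in cortex. Cdkn2c, an inhibitor of Cdk4 and Cdk6, was higher on every retina array (1.25 log2 (SE 0.15, adjusted p in limma 6.4e-07) and 1.13 log2 (SE 0.15, adjusted p in limma 2.3e-06)). Cdkn1c, an inhibitor known from cells leaving the cycle, was called lower at the first site only (-1.07 and -0.86), and Cdkn2a at site 2 only (-0.45 and -1.23), a call lost without retina replicate 2 (-0.94). Cdkn2d (-0.45 and -0.17) and Cdkn2aip (0.50 and 0.68) were not called.

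The Cdc genes held large differences in both directions beside genes that were not called. Cdc20 read 0.147, 0.103, 0.0956, 0.103 and 0.131 on the 5 retina arrays of the first site, against 0.884, 0.685, 0.956, 1.04 and 0.862 on the 5 cortex arrays. At site 2, Cdc20 read 0.102, 0.0916, 0.099, 0.0889 and 0.0515 in retina, against 0.998, 0.926, 1.01, 0.883 and 0.691 in cortex. Cdc20, which activates the anaphase-promoting complex, was 7.67-fold and 10.6-fold lower in retina, and the arrays of the tissues did not overlap (-2.94 log2 (SE 0.18, adjusted p in limma 2.6e-11) and -3.41 log2 (SE 0.18, adjusted p in limma 2.9e-12)). Cdc6, a loader of the Mcm helicase, was lower by -2.10 log2 (SE 0.53, adjusted p in limma 0.0023) at the first site, and by -2.34 log2 (SE 0.56, adjusted p in limma 0.0015) at site 2, where cortex replicate 5 read 4.87 and the other 4 cortex arrays 0.35 to 0.389. Cdc25a read 1.71, 2.07, 1.57, 1.62 and 1.42 on the 5 retina arrays of the first site, against 0.406, 0.373, 0.406, 0.334 and 0.349 on the 5 cortex arrays. At site 2, Cdc25a read 0.817, 0.748, 0.874, 1.1 and 1.02 in retina, against 0.325, 0.485, 0.729, 0.496 and 0.324 in cortex. Cdc25a, a phosphatase that activates Cdks at the start of S phase, was the only Cdc gene called higher in retina, by 2.16 log2 (SE 0.18, adjusted p in limma 3.3e-09) at the first site and 1.00 log2 (SE 0.18, adjusted p in limma 7.7e-05) at site 2, with no overlap at either. The site 2 call of Cdc25a lay at the limit of 2-fold and was lost without retina replicate 4 or 5 or cortex replicate 1 or 5 of that site (0.88 at the lowest). Cdc25b, a phosphatase of mitotic entry, was called lower at the first site (-1.36) and missed the fold limit at site 2 (-0.87). Cdc45, part of the replicative helicase, differed by less than 2-fold (-0.03 and -0.13), as did the anaphase-promoting complex subunit Cdc16 (0.00 and 0.23) and the splicing factors Cdc40 (0.03 and -0.13) and Cdc5l (0.15 and 0.26). Cdc37 (0.50 and 0.43), Cdc37l1 (0.43 and -0.19) and Cdc26 (-0.63 and -0.16) missed the 2-fold limit.

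Among the genes of replication origins, 4 of the Mcm helicase were called lower in retina, and no Orc gene was. Of 14 tested Mcm and Orc genes those 4 (Mcm3, Mcm5, Mcm6 and Mcm7) were called at both sites (28.6%, against 10.5% of all tested probes). Mcm3 read 0.278, 0.183, 0.298, 0.356 and 0.323 on the 5 retina arrays of the first site, against 1.3, 1.12, 1.38, 1.18 and 1.15 on the 5 cortex arrays. At site 2, Mcm3 read 0.352, 0.338, 0.385, 0.336 and 0.438 in retina, against 1.74, 1.61, 1.65, 1.41 and 1.36 in cortex. Mcm3 was 4.35-fold and 4.2-fold lower in retina without overlap (-2.12 log2 (SE 0.14, adjusted p in limma 1.0e-10) and -2.07 log2 (SE 0.14, adjusted p in limma 1.6e-10)). Mcm5 was 3.1-fold and 4.01-fold lower in retina, and Mcm7 differed by -1.33 and -1.63. Mcm6 differed by -2.25 log2 (SE 0.57, adjusted p in limma 0.002) at the first site, and at site 2 by -1.86 log2 (SE 0.57, adjusted p in limma 0.0083), where retina replicate 2 read 2.9 and the other 4 retina arrays 0.132 to 0.203, so that the tissues overlapped. This call was lost when only the 2 groups of site 2 were fitted. The subunits Mcm2 (-0.24 and -0.94) and Mcm4 (-0.38 and -0.43) were not called, nor was the replication factor Mcm10 (0.06 and 0.18) or the messenger RNA export factor Mcm3ap (-0.15 and -0.11). Orc2 read 1.03, 0.978, 0.841, 0.894 and 0.92 on the 5 retina arrays of the first site, against 0.498, 0.588, 0.371, 0.359 and 0.444 on the 5 cortex arrays. At site 2, Orc2 read 0.981, 0.913, 0.815, 0.834 and 0.8 in retina, against 0.569, 0.653, 0.658, 0.57 and 0.415 in cortex. Orc2, a core subunit of the origin recognition complex, was called higher in retina on the first site's arrays (1.07 log2 (SE 0.14, adjusted p in limma 1.2e-06)), a call lost without cortex replicate 4 (0.99), and was not called at site 2 (0.61). Orc6 lay lower on every retina array than on every cortex array at both sites but missed 2-fold (-0.93 and -0.75). Orc1 differed by -0.57 and -0.75, and Orc3 (-0.04 and -0.20), Orc4 (-0.14 and 0.13) and Orc5 (0.05 and -0.35) were not called.

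Replication factors and polymerases were for the most part not called. Of 16 genes, 2 were called lower in retina at both sites, a share (12.5%) near the 10.5% of all tested probes, 1 at the first site only and none higher. Rrm2 read 0.285, 0.304, 0.284, 0.272 and 0.271 on the 5 retina arrays of the first site, against 2.71, 2.63, 2.78, 2.82 and 3.26 on the 5 cortex arrays. At site 2, Rrm2 read 0.244, 0.226, 0.204, 0.171 and 0.245 in retina, against 3.16, 3.04, 3.43, 3.43 and 2.47 in cortex. Rrm2, the S-phase subunit of ribonucleotide reductase, which supplies deoxynucleotides, was 10-fold and 14.3-fold lower in retina without overlap (-3.32 log2 (SE 0.10, adjusted p in limma 1.6e-15) and -3.84 log2 (SE 0.10, adjusted p in limma 2.0e-16)). The large subunit Rrm1 was dim in all groups (at most 0.136 on average) and missed the 2-fold limit (-0.73 and -0.69). Pole2, a subunit of the leading-strand polymerase, was lower by -1.72 and -1.29, and Rfc3, a clamp loader subunit, was called at the first site only (-1.36 and -0.97). Pcna, the sliding clamp of replication and repair, averaged 21.8 in retina and 19.6 in cortex on the first site's arrays and 13.7 in retina and 13.5 in cortex at site 2 and was not called (0.16 and 0.03). The other clamp loader genes Rfc1 (0.20 and 0.55), Rfc2 (-0.37 and -0.48) and Rfc5 (-0.56 and -0.55) were not called. The lagging-strand polymerase subunits ran from -0.22 for Pold3 to 0.84 for Pold1 at the first site and from 0.04 to 0.97 at site 2, with Pold2 at 0.13 and 0.12 and Pold4 at 0.48 and 0.56. The priming polymerase subunits Pola1 (-0.19 and -0.72) and Pola2 (-0.22 and -0.52) and the small subunits Pole3 (-0.78 and -0.43) and Pole4 (-0.10 and -0.04) were not called. The second probe of Pole3 differed by -0.94 and -1.01, so it passed the 2-fold limit at site 2, while the brighter probe did not.

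Of the E2f transcription factors 1 of 4 was called, lower in retina at both sites, against 10.5% of all tested probes. E2f1 read 0.323, 0.489, 0.542, 0.478 and 0.4 on the 5 retina arrays of the first site, against 1.3, 1.31, 1.29, 1.29 and 1.25 on the 5 cortex arrays. At site 2, E2f1 read 0.502, 0.432, 0.543, 0.704 and 0.435 in retina, against 1.21, 1.23, 1.21, 1.35 and 0.841 in cortex. E2f1, an activator of S-phase genes, was 2.94-fold and 2.24-fold lower in retina without overlap (-1.55 log2 (SE 0.15, adjusted p in limma 3.1e-08) and -1.17 log2 (SE 0.15, adjusted p in limma 1.6e-06)). The activator E2f3 (-0.28 and -0.05) and the repressor E2f5 (-0.08 and 0.01) were not called, and the repressor E2f6 lay higher in retina without reaching 2-fold (0.75 and 0.56).

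Most checkpoint genes were not called, and most Aurora and Polo kinases were lower in retina. Of 8 checkpoint genes 2 were called lower at both sites, against 10.5% of all tested probes, and none higher, against 9.31%. Chek1 read 0.164, 0.0788, 0.067, 0.104 and 0.0862 on the 5 retina arrays of the first site, against 0.4, 0.276, 0.317, 0.255 and 0.269 on the 5 cortex arrays. At site 2, Chek1 read 0.134, 0.158, 0.114, 0.149 and 0.145 in retina, against 0.528, 0.565, 0.515, 0.675 and 0.39 in cortex. Chek1, the kinase of the replication checkpoint, was lower on every retina array (-1.66 log2 (SE 0.20, adjusted p in limma 5.8e-07) and -1.92 log2 (SE 0.20, adjusted p in limma 7.6e-08)), whereas Chek2 was not called (-0.15 and -0.37). Bub1, a kinase of the spindle checkpoint, was lower by -1.81 and -1.52 at means of 0.0407 in retina and 0.142 in cortex on the first site's arrays, near the floor of the table, and the call was lost with intensities below the 25th percentile of the table raised to it. The checkpoint proteins Bub1b (-0.21 and -0.27), Bub3 (-0.06 and -0.49), Mad1l1 (-0.16 and -0.76) and Mad2l1 (0.01 and 0.04) and the Mad2l1 partner Mad2l1bp (-0.06 and -0.24) were not called.

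Of 6 Aurora and Polo kinases 3 were called lower in retina at both sites and none higher. The shares of all tested probes were 10.5% lower and 9.31% higher. Plk2 read 5.53, 5.35, 5.21, 5.15 and 4.96 on the 5 retina arrays of the first site, against 21.5, 23.4, 22.7, 22.7 and 27.8 on the 5 cortex arrays. At site 2, Plk2 read 5.34, 4.53, 4.72, 5.14 and 5.08 in retina, against 20.2, 21.3, 19.3, 23.2 and 18.5 in cortex. Plk2, a Polo kinase known from neuronal activity and synapses, was 4.49-fold and 4.13-fold lower in retina, and its retina arrays lay within a narrow range (-2.17 log2 (SE 0.08, adjusted p in limma 1.1e-14) and -2.04 log2 (SE 0.08, adjusted p in limma 2.9e-14)). Plk4, which starts centriole duplication, was lower by -2.01 and -1.66, and Aurkb, the Aurora kinase of the chromosomal passenger complex, by -1.94 and -1.61. Aurka, the Aurora kinase of spindle poles, was called at the first site only (-1.70 and -0.95), and Aurkc, known from meiosis, at neither (-0.38 and -0.46). Plk1, the mitotic Polo kinase, was called at site 2 only (-1.52 log2 (SE 0.60, adjusted p in limma 0.034)), where cortex replicate 5 read 3.78 and the other 4 cortex arrays 0.172 to 0.352, and without it the difference was -0.70, close to the -0.99 of the first site. The call was also lost without retina replicate 1, 4 or 5 of site 2.

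Of 12 centromere protein genes 8 were called lower in retina at 1 or both sites, against 1654 of all 10339 tested probes. All 12 differences were below 0 at both sites, 4 members were called lower in retina at both sites (33.3%, against 10.5% of all tested probes), 2 at the first site only and 2 at site 2 only, and the median was -1.11 and -1.05. Cenpk read 0.19, 0.134, 0.119, 0.143 and 0.124 on the 5 retina arrays of the first site, against 1.49, 1.73, 1.53, 1.66 and 1.76 on the 5 cortex arrays. At site 2, Cenpk read 0.109, 0.115, 0.122, 0.124 and 0.123 in retina, against 1.19, 1.33, 1.06, 1.23 and 0.988 in cortex. Cenpk, a subunit of the constitutive centromere network, was 11.7-fold and 9.74-fold lower in retina without overlap (-3.54 log2 (SE 0.11, adjusted p in limma 1.4e-15) and -3.28 log2 (SE 0.11, adjusted p in limma 4.5e-15)). Cenpw read 0.207, 0.267, 0.262, 0.35 and 0.228 on the 5 retina arrays of the first site, against 2.6, 2.42, 2.84, 2.9 and 2.71 on the 5 cortex arrays. At site 2, Cenpw read 0.218, 0.206, 0.199, 0.276 and 0.316 in retina, against 2.1, 2.2, 1.95, 2.09 and 1.53 in cortex. Cenpw, a histone-fold protein of the same network, showed no overlap either (-3.38 log2 (SE 0.15, adjusted p in limma 1.8e-13) and -3.03 log2 (SE 0.15, adjusted p in limma 9.5e-13)). Cenph read 0.0813, 0.0661, 0.0602, 0.0702 and 0.0874 on the 5 retina arrays of the first site, against 0.772, 0.734, 0.692, 0.877 and 0.725 on the 5 cortex arrays. At site 2, Cenph read 0.0512, 0.0959, 0.0977, 0.0917 and 0.111 in retina, against 0.734, 0.729, 0.655, 0.585 and 0.553 in cortex. Cenph, the partner of Cenpk, was 10.5-fold and 7.47-fold lower in retina and its arrays did not overlap (-3.39 log2 (SE 0.16, adjusted p in limma 1.1e-12) and -2.90 log2 (SE 0.16, adjusted p in limma 1.2e-11)). With intensities below the table's 25th percentile raised to it the folds of Cenph were 3.9 and 3.33. Cenpa, the histone H3 variant of centromeres, was lower by a smaller amount (-1.25 and -1.13). Cenpu (-1.66 and -0.97) and Cenpp (-1.74 and -0.55) were called at the first site only, and Cenpb (-0.85 and -1.25), which binds centromeric DNA, and Cenpf (-0.71 and -1.93) at site 2 only. Cenpm (-0.97 and -0.72), Cenpx (-0.85 and -0.92), Cenpq (-0.53 and -0.25) and Cenpc1 (-0.31 and -0.25) lay below 0 and reached 2-fold at neither site.

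The 3 members that were not tested had values at the first site. Cdc7, the kinase that fires origins, read 6.96, 7.16, 6.58, 6.46 and 6.67 on the retina arrays of the first site, against 1.33, 1.63, 1.04, 1.06 and 1.28 on the cortex arrays. At site 2 Cdc7 had values on 2 retina arrays, 3.13 and 3.2, against 1.24, 1.42, 1.41 and 0.946 on 4 cortex arrays, and the retina lay higher at both sites. Cdk2ap1, the relative of Cdk2ap2, averaged 1.52 in retina and 3.44 in cortex, and Mcm8, a helicase of recombination, 0.616 in retina and 0.258 in cortex on the first site's arrays, with no overlap between the tissues, and site 2 held no value for either.

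Promoters of 107 of the 123 members were found in the RefSeq promoter table of GRCm38.p6, and the 250 bases before the annotated start were searched on both strands for letters known from cell cycle promoters. These were TTTNNCGC, a form of the E2F site, TTTGAA, the core of the CHR element of G2 and M-phase genes, and CCAAT, the CCAAT box, and a gene counted if any of its windows held the letters, as 17 members had several windows. The E2F letters were found in 21 of 107 members (19.6%), against 7.64% of the array's genes with a window and 4.94% of all genes of the table. The CHR letters were found in 18.7% of the members, against 13.9% and 18.3%, and the CCAAT letters in 54.2%, against 40.0% and 37.5%. Of the 27 members called lower at both sites that had a window, 7 held the E2F letters (25.9%: Cdc6, Cdk1, Cenpk, Mcm5, Mcm6, Mcm7 and Mycn), 8 the CHR letters (29.6%: Ccnb2, Cdc20, Cdk1, Cdkn3, Cenpw, Mki67, Mycn and Top2a) and 16 the CCAAT letters (59.3%). Of the 57 members called at neither site, 15.8%, 17.5% and 47.4% held them, in the same order. These shares were not tested, and a match describes letters and not a bound site.

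The windows of 3 members lower in retina, chosen because they show the letters of the S-phase and of the mitotic genes, and of the member with the largest difference towards retina are printed 5′ to 3′ with the matches in capitals.
Cdk1, chr10:69352913-69353162, minus strand: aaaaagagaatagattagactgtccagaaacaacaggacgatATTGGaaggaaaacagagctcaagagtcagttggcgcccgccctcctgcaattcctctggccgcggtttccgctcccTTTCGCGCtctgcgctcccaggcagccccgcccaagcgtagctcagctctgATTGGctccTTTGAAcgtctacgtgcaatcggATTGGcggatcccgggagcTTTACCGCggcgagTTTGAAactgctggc
Top2a, chr11:99024190-99024439, minus strand: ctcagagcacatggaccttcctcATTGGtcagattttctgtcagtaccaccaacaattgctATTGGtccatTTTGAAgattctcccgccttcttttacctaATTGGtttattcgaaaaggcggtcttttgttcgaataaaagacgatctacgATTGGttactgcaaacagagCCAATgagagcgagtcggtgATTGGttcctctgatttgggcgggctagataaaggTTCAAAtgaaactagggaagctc
Mcm6, chr1:128359706-128359955, minus strand: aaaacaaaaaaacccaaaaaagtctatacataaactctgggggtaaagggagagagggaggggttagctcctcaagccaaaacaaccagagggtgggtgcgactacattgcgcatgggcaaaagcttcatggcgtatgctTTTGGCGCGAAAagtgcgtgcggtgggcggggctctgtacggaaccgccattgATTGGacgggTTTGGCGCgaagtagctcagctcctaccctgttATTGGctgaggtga
Cdk2ap2, chr19:4097101-4097350, plus strand: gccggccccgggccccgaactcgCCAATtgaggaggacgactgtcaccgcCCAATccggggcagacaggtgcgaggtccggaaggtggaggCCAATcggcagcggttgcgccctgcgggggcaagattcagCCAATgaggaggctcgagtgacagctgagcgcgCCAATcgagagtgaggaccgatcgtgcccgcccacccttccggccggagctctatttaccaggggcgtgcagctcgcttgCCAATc
Cdk1 held 2 E2F matches, 2 CHR matches, the nearer 9 bases before the start, and 3 CCAAT matches, all of them read on the opposite strand as ATTGG.
Top2a held 6 CCAAT matches and 2 CHR matches, the nearer 17 bases before the start, and no E2F match.
Mcm6 held 3 E2F matches, of which 2 overlap on opposite strands in the run TTTGGCGCGAAA, and 2 CCAAT matches, and no CHR match.
Cdk2ap2 held 6 CCAAT matches and neither E2F nor CHR letters, so the CCAAT letters occur on both sides of the tissue difference.

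The tissue difference of most members was alike at the 2 sites. Of the 120 members 110 had the same sign at both sites, 96 differed by less than 0.5 log2 between the sites and 114 by less than 1 log2. The median gap was 0.26 log2 and the largest 1.81, for Cdc25c. The interaction test, which compares the tissue difference at site 2 with that at the first site, called 5 of 120 members, against 0.725% of all tested probes.

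**Figure D4:**
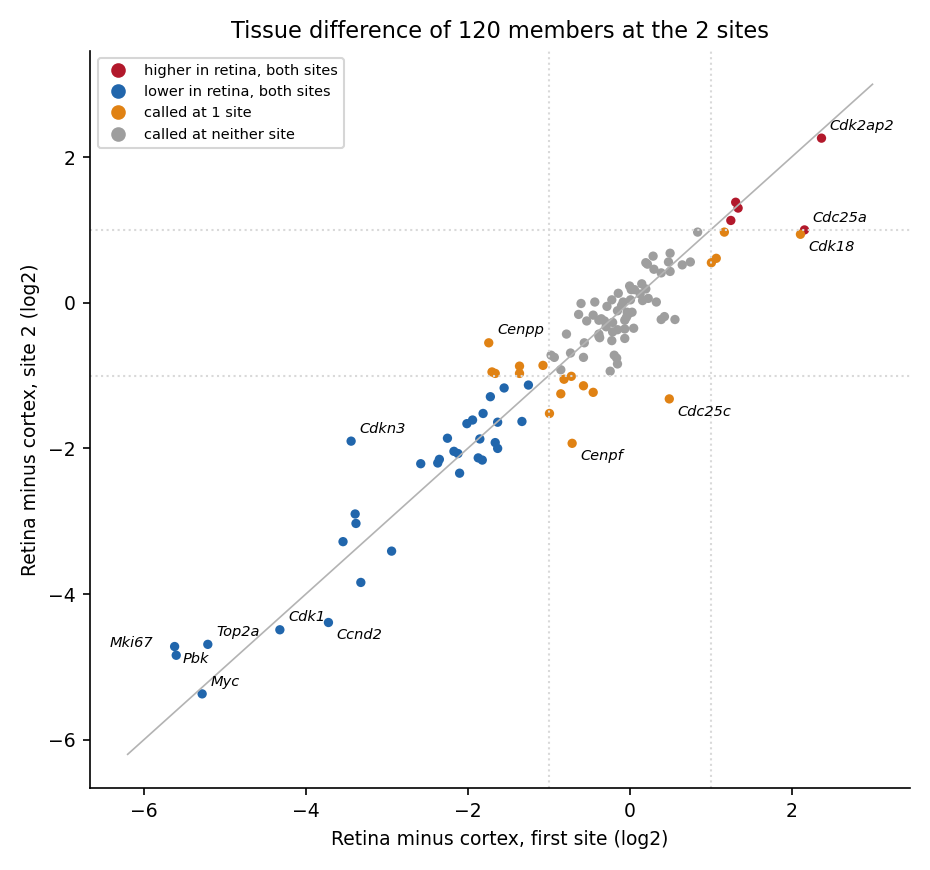
The retina minus cortex difference (log2 intensity) of each of the 120 tested members at site 2 (vertical axis) against the first site (horizontal axis), with the line of equal values and dotted lines at 2-fold. Most members lie near the line, and Cdc25c, Cenpf, Cdkn3, Cenpp and Cdc25a lie away from it.

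Cdc25c, a phosphatase of mitotic entry, read 0.129, 0.0547, 0.116, 0.0927 and 0.0941 on the retina arrays of site 2, against 0.176, 0.233, 0.322, 0.297 and 0.178 on the cortex arrays. On the first site's arrays Cdc25c read 0.171, 0.159, 0.163, 0.127 and 0.146 in retina, against 0.107, 0.096, 0.111, 0.119 and 0.109 in cortex. Retina therefore lay below cortex at site 2 and above it at the first site, without overlap in either case, and the 2 differences were -1.81 (SE 0.28, adjusted p in limma 0.0021) apart. All first-site values of Cdc25c lay under the 25th percentile (0.194). With intensities below it raised to it the differences were -0.32 at site 2 and 0.00 at the first site and were not called apart (adjusted p in limma 0.211). Cenpf, a kinetochore protein of late G2 and mitosis, read 0.14, 0.213, 0.117, 0.192 and 0.132 in retina at site 2, against 0.652, 0.57, 0.712, 0.628 and 0.432 in cortex. For Cenpf the first site gave 0.782, 0.708, 0.728, 0.772 and 0.952 in retina, against 1.19, 1.52, 1.23, 1.29 and 1.22 in cortex. Cenpf was lower at site 2 in both tissues, more so in retina, and its tissue difference at site 2 minus that at the first site was -1.22 (SE 0.22, adjusted p in limma 0.0061). For Cdc25a the same quantity was -1.16 (SE 0.25, adjusted p in limma 0.016), for Cdkn3 1.54 (SE 0.37, adjusted p in limma 0.028) and for Cenpp 1.18 (SE 0.32, adjusted p in limma 0.043). Cenpp, a centromere network subunit, had retina means of 0.194 at site 2 and 0.0958 at the first site, and cortex means of 0.286 and 0.319. The 2 positive calls, Cdkn3 and Cenpp, were lost in limma after quantile normalization, with intensities under the 25th percentile raised to it and with a replicate block, where 0 members were called, and 14, 16 and 15 had a positive difference at an unadjusted p under 0.05. Of the negative calls, Cdc25a was lost after quantile normalization (-0.97), and Cdc25c (-0.32) and Cenpf (-0.87) with that floor, which added Ccnd2 (-1.68, adjusted p in limma 7.9e-05). Leaving out 1 of the 20 arrays at a time lost the call of Cenpp in 12 cases, of Cdkn3 in 4, of Cdc25a in 1 (cortex replicate 3 of site 2, -0.98) and of Cdc25c and Cenpf in none.

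**Figure D5:**
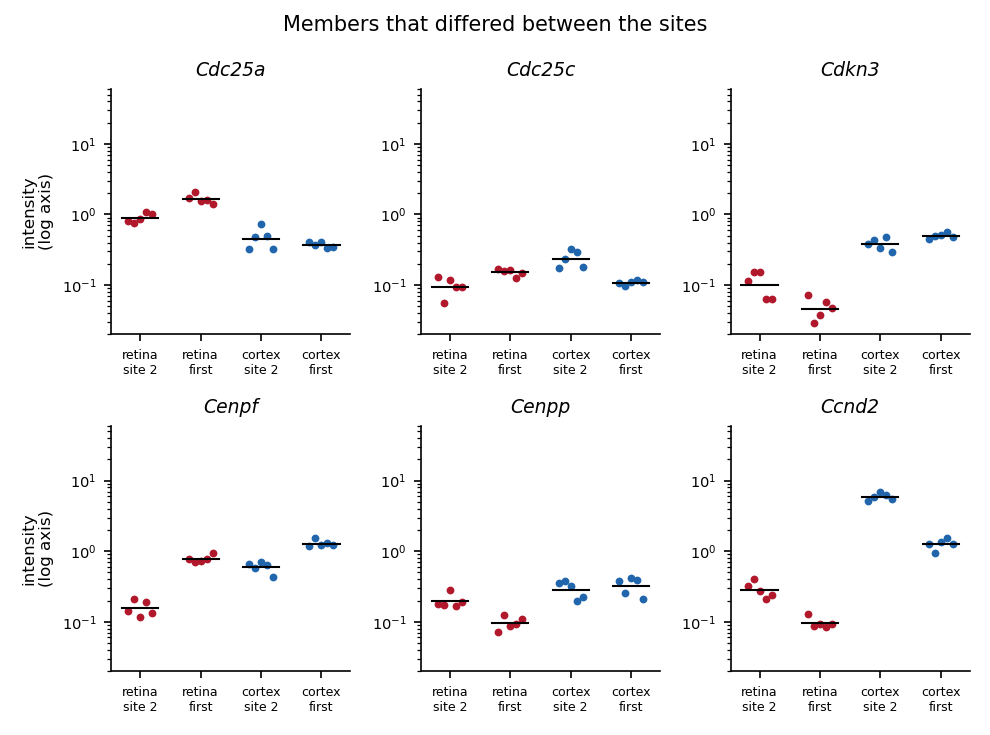
Intensity (log axis, no unit) of the 5 members with an interaction call and of Ccnd2, 1 point per array, red for retina and blue for cortex, site 2 left of the first site for each tissue, with a line at the geometric mean of each group of 5. Cenpf is lower and Ccnd2 higher at site 2 in both tissues, and Cdc25c changes the order of the tissues.

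Between the sites, within a tissue, few members differed by 2-fold or more. With no fold limit 26 of 120 members lay higher and 41 lower at site 2 in retina, at an adjusted p under 0.05 in limma. In cortex 22 lay higher and 32 lower. By the same rule 2324 of all 10339 tested probes lay higher and 2501 lower in retina, and 2386 and 2455 in cortex. In retina 7 of 120 members were called higher at site 2 than at the first site (5.83%, against 4.79% of all tested probes) and 1 lower (0.833%, against 1.45%). In cortex 4 were higher (3.33%, against 5.29%) and 2 lower (1.67%, against 1.92%), shares near those of all probes. Ccnd2, whose array values are given above, was higher at site 2 in retina by 1.56 (SE 0.16, adjusted p in limma 7.1e-07) and in cortex by 2.23 (SE 0.16, adjusted p in limma 1.5e-08), and the arrays of the sites did not overlap in either tissue. Cdk6, a kinase partner of D-type cyclins, read 0.164, 0.152, 0.244, 0.147 and 0.176 in retina at site 2, against 0.109, 0.0901, 0.0828, 0.077 and 0.0701 at the first site. In cortex Cdk6 read 0.275, 0.388, 0.23, 0.425 and 0.279 at site 2, against 0.0668, 0.0987, 0.128, 0.103 and 0.0853 at the first site. Cdk6 was thus called higher at site 2 in both tissues, without overlap (1.03 (SE 0.19, adjusted p in limma 2.6e-04) and 1.72 (SE 0.19, adjusted p in limma 1.2e-06)). Cdc25b read 0.259, 0.212, 0.225, 0.266 and 0.283 in retina at site 2, against 0.113, 0.13, 0.0866, 0.0923 and 0.123 at the first site, a difference of 1.21 (SE 0.14, adjusted p in limma 1.6e-06) with no overlap. In cortex Cdc25b read 0.519, 0.494, 0.496, 0.384 and 0.393 at site 2, against 0.228, 0.33, 0.246, 0.264 and 0.322 at the first site, which missed the fold limit (0.72). The other retina calls were Aurka (1.19), Cdkn3 (1.13), Pbk (1.08) and Cenpp (1.02), all higher at site 2, and Cenpf, lower (-2.34). The other cortex calls were Pola1 (1.20) and Cdc25c (1.11), higher at site 2, and Cenpf (-1.12) and Cdc5l (-1.04), lower. With intensities under the 25th percentile raised to it, 0 retina members (19 at an unadjusted p under 0.05 in limma) and 1 cortex member were called higher at site 2. The retina differences were then 0.54 for Ccnd2, 0.35 for Cdc25b and at most 0.11 for Cdk6, Aurka, Cdkn3, Pbk and Cenpp.

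The members called lower in retina at both sites were dim there. Of these 32 members 16 had a retina mean under the table's 25th percentile (0.194) at the first site and 15 at site 2, against 1 cortex mean at each site. Technical spread was wider on that side, and the median SD of these 32 members was 0.26 log2 in retina at each site, against 0.12 in cortex on the first site's arrays and 0.19 at site 2 (n = 5 arrays each). Over all 120 tested members the median SD was 0.15 log2 in retina and 0.12 in cortex on the first site's arrays, and 0.17 and 0.21 at site 2, close to the medians over all probes (0.16, 0.17, 0.16 and 0.23). The 65 members called at neither site had median intensities of 1.33 in retina and 1.39 in cortex on the first site's arrays, and 1.31 and 1.32 at site 2, so most of them were not at the dim end. With intensities under the 25th percentile raised to it, the lower calls of Cenpp, Bub1, Aurkb, Aurka, Chek1, Cdc6 and Cdc25b at the first site and of Pole2, Cdkn3, Bub1, Aurkb, Cdc25c, Cdkn2a and Plk1 at site 2 were lost. Of these, Cdc6 (-1.06, adjusted p in limma 0.118) and Plk1 (-1.02, adjusted p in limma 0.152) still differed by over 2-fold and missed the adjusted p alone. That floor changed the fold of 16 of 47 called members at the first site and of 14 of 45 at site 2 by over 1.5 times, and 9 and 8 of these were still called. With it the first-site folds were 17.1 for Mki67, 11.8 for Pbk, 8.13 for Top2a, 18.4 for Myc, 6.52 for Ccnd2, 4.51 for Cdc20, 2.57 for Cdkn3 and 2 for Cenpu. The site 2 folds were 16.7 for Mki67, 13.4 for Pbk, 9.56 for Top2a, 23.6 for Myc, 4.6 for Cdc20, 3.18 for Cdc6 and 5.93 for Cenpk.

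Genes of the same processes that the spelling rule leaves out were taken from lists, which were chosen with earlier results of these data known. The counts cover the tested genes only. These were 12 of the 24 listed spindle and kinetochore genes and 19 of 28 for chromosome structure and cell division. They were 16 of 19 for fork and nucleotide supply, 8 of 14 for licensing and initiation and 18 of 22 for G1 to S control. Of all tested probes 10.5% were called lower and 9.31% higher at both sites. Spindle and kinetochore genes had 7 of 12 called lower in retina at both sites (58.3%) and 1 higher (8.33%), with medians of -1.88 and -2.02. Among them Spc25, a kinetochore subunit, was higher in retina (4.39 and 4.64), Hmmr, a spindle assembly factor (-3.57 and -3.92), and Tpx2, an activator of Aurka (-3.15 and -2.36), were lower, and the kinesin gene Kif20a was not called (0.00 and 0.07). Of 19 genes of chromosome structure and cell division 6 were lower at both sites (31.6%) and 1 higher (5.26%), with medians of -0.72 and -0.63. Birc5, survivin of the chromosomal passenger complex (-3.94 and -3.54), and Ncapg, a condensin subunit (-2.98 and -2.38), were lower, Stag2, a cohesin subunit named after its value was seen, was higher (1.24 and 1.09), and Anapc1 of the anaphase-promoting complex was not called (0.05 and -0.10). Fork and nucleotide supply genes had 6 of 16 lower at both sites (37.5%) and 2 higher (12.5%), with medians of -0.18 and -0.56. Tk1, thymidine kinase (-3.65 and -3.43), and Chaf1b, a chromatin assembly subunit (-3.21 and -2.56), were lower, and the ligase gene Lig1 was not called (0.02 and -0.06). The 2 higher genes, named after their values were seen, were Rpa1, a single-strand binding protein (1.20 and 1.55), and Asf1b, a histone chaperone (1.01 and 1.05). Of 8 licensing and initiation genes 2 were lower at both sites and none higher, with medians of -0.08 and 0.03. These were Gins1 (-2.16 and -1.73) and Gins2 (-2.04 and -1.45) of the replicative helicase, while Dbf4, the activator of Cdc7 (0.96 and 0.73), and the licensing inhibitor Gmnn (0.01 and 0.00) were not called. Of 18 genes of G1 to S control 3 were lower and 3 higher at both sites (16.7% each), with medians of -0.21 at each site. Cks1b, a Cdk-binding protein (-2.66 and -2.59), and Mybl2, a transcription factor of cycling cells (-1.92 and -2.80), were lower in retina, Gadd45a, a growth arrest gene (2.95 and 2.86), and Btg2, an antiproliferative gene (2.85 and 2.14), were higher, and the transcription factor gene Foxm1 was not called (0.26 and -0.10). The remaining ones, named after their values were seen, were Cks2, lower (-1.20 and -1.49), and Skp2, a ubiquitin ligase subunit, higher (2.09 and 1.93). At site 2 alone the G1 to S list had 16.7% called lower, against 13.5% of all tested probes, and 27.8% higher, against 11.1%.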

How the data were processed

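The authors deposited linear intensities of 10500 probes for each of 20 CodeLink arrays. Per the labels, the RNA was labelled with biotin by the CodeLink assay protocol, while the scanner software, the background correction and the scaling were not given in the sources used here. Intensities from the deposited table were put on the log2 scale, and the 143 values at or below 0 were treated as missing beside 2080 blanks. The array medians differed by at most 0.0594 log2, so no further normalization was applied. Probes with a value on at least 3 of 5 arrays in each group were tested (10339). limma 3.58.1 in R 4.3.3 fitted 1 mean for each of 4 groups (lmFit, eBayes, 16 residual and 2.16 prior degrees of freedom). Contrasts were retina minus cortex at each site, the difference of these, and site 2 minus the first site in each tissue, with 2-sided p-values adjusted by Benjamini-Hochberg over all tested probes. No detection call was used, so nothing in the table separates a dim probe from background, and precision is limited by the number of arrays. Replicate numbers do not pair arrays, since deviations of same-numbered arrays correlated between -0.084 and 0.04 across tissues.

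Probes were named from the platform annotation and members were 1 probe per gene, the brightest over the 20 arrays, named with their RefSeq gene identifiers, of which 123 were found. Array values are given for the 12 members with the largest mean difference among those called at both sites, each member called higher in retina, the 6 largest site or interaction calls and the leading member of each role. From each list up to 4 genes with the largest and 1 with the smallest difference are named. The members, lists and tests were chosen with earlier results of these data known. Alternatives were quantile normalization, floors at the 5th and 25th percentile of intensity, a value on all 20 arrays, an intensity trend with robust moderation, a replicate block, no fold threshold, the mean of a gene's probes, fits of only the 2 groups compared and leaving out each array. The fit was tested on simulated data first. Python 3.11.15 with pandas 2.3.3, numpy 2.4.6 and matplotlib 3.10.9 made tables and plots.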

Additional observations from a re-analysis of the deposited data

Results flagged for a closer look

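In the 55 members called between the tissues at 1 or both sites, the 4 groups of 5 arrays were searched by Dixon's criterion for 5 values. It looks for an array that lies apart from the other 4, and 21 of 220 groups held such an array. All genes were read on the same 20 arrays, so the groups are not independent and no chance rate is set beside this count. Cortex replicate 5 of site 2 accounted for 8 of the 21. On that array Cdc6 read 4.87, Cdk18 3.31, Cenpa 3.54, Mcm5 2.56, Myc 7.13 and Plk1 3.78, each the highest of its group, and Cdk4 read 5.48 and E2f1 0.841, each the lowest. Mcm2, called at neither site and so not searched, read 3.48 on it and 0.164 to 0.238 on the other 4 cortex arrays of site 2. The other cortex arrays of site 2 read at most 4.31 for Myc and 1.36 for Mcm5. Retina replicate 2 of site 2 was highest for Ccnb2 (0.9), Cdkn1c (2.36) and Mcm6 (2.9) and lowest for Mki67 (0.0886). Other retina arrays of site 2 were lowest for Ccndbp1 (13.1, replicate 5), Cdc20 (0.0515, replicate 5) and Cenph (0.0512, replicate 1) and highest for Cenpp (0.283, replicate 3). In retina at the first site Ccnd2 was highest on replicate 1 (0.129) and Ccnd3 on replicate 3 (1.28). In cortex at the first site Ccnd3 (0.385) and Mcm7 (2.03) were lowest on replicate 2, and Mcm5 was highest on replicate 1 (1.38).

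The retina minus cortex difference was not the same at the 2 sites for 5 members by the interaction test in limma. Site 2 minus the first site, it was -1.81 for Cdc25c (adjusted p 0.0021), -1.22 for Cenpf (adjusted p 0.0061), -1.16 for Cdc25a (adjusted p 0.016), 1.54 for Cdkn3 (adjusted p 0.028) and 1.18 for Cenpp (adjusted p 0.043). At the first site all 5 retina arrays lay apart from all 5 cortex arrays for each of these genes, and at site 2 for each but Cenpp.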

How the results depend on the processing

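The counts of members called higher or lower between retina and cortex stayed within 1.5 times under every alternative except with no fold threshold. That setting called 24 of 120 members higher and 62 lower at the first site and 20 and 69 at site 2. Of all 10339 tested probes it called 2955 higher and 3237 lower at the first site and 2932 and 3315 at site 2. With no fold threshold 26 members were also called higher and 41 lower at site 2 in retina, and 22 and 32 in cortex. Of all 10339 tested probes 2324 and 2501 were so called in retina, and 2386 and 2455 in cortex. Replicate numbers did not pair the arrays, and with a replicate block the tissue counts were 9 and 38 at the first site and 5 and 40 at site 2, while the positive interaction calls went from 2 to 0 in limma (15 at an unadjusted p under 0.05). Positive interaction calls were also 0 after quantile normalization and with low intensities raised to the 25th percentile (14 and 16 at an unadjusted p under 0.05), and 0 to 2 without each array in turn, with 0 without retina replicate 3 or cortex replicate 3 of the first site or cortex replicate 3 of site 2. Retina members higher at site 2 numbered 2 after quantile normalization, 0 with that floor (19 at an unadjusted p under 0.05) and 4 to 8 without each array, the 4 without retina replicate 3 of site 2. Retina members lower at site 2 numbered 3 after quantile normalization. Cortex members higher at site 2 numbered 2 after quantile normalization and 1 with the floor. Cortex members lower at site 2 numbered 1 when values on all 20 arrays were required, and 1 to 3 without each array, the 1 without cortex replicate 2 of the first site or replicate 5 of site 2. The causes were not tested. Of 47 members called at the first site 45 kept their call without each array and 38 in every setting, and of 45 at site 2 40 and 34 did. No difference turned its sign in a call. The dim level of many retina values and the unknown background step limit the size of the largest folds.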
